A study of Mus musculus with 10 samples.

Results

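The genes described here are 9 members of the pathway by which macrophages sense and export cholesterol. They are the nuclear receptor genes Nr1h2, Nr1h3, Rxra and Pparg, the cholesterol efflux transporter genes Abca1 and Abcg1, the ubiquitin ligase gene Mylip, and the genes Pltp and Apoc2 of 2 secreted lipoprotein proteins. They were listed by name, with no threshold on their values but with earlier results of these data known, and are 9 of the 13809 genes in the expression table. All 9 are in the table and passed the filter on low values.

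Expression was measured by RNA sequencing of total RNA in 10 libraries of bone marrow macrophages from femur and tibia of C57BL/6 mice at postnatal 12 weeks, with no genetic change named. Resident bone marrow macrophages (labelled CD163+) were the ferromagnetic cells that stayed on a MACS column loaded without staining, so they were sorted by magnetism and not by an antibody. Bone marrow derived macrophages (BMDM, labelled CD163-) were grown from the nonferromagnetic flow-through in DMEM with 10% fetal bovine serum and 20% L929 cell supernatant, a source of macrophage growth factor. The growth protocol gives 6 days of culture and the sample titles give 7 days. No medium is named for the resident cells, so origin and culture cannot be told apart. Macrophages of both origins were left untreated or given lipopolysaccharide (LPS), a bacterial cell wall component sensed by Toll-like receptor 4, at 1 µg/ml for 4 h. There were 3 untreated and 3 LPS-treated resident libraries, and 2 untreated and 2 LPS-treated BMDM libraries. Nothing in the labels tells if libraries of a group were made from different mice or dishes. The p-values therefore cover the spread among these libraries. This spread may be technical, except where Y-linked transcripts (below) set replicate 1 of each resident group apart.

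Liver X receptors (LXRα from Nr1h3, LXRβ from Nr1h2) are nuclear receptors that oxidised cholesterol activates. Each binds DNA as a pair with a retinoid X receptor such as RXRα (from Rxra), at repeated AGGTCA-like elements spaced by 4 bases (DR4). PPARγ (from Pparg), a receptor for fatty acid derivatives, pairs with the same RXR partners at elements spaced by 1 base (DR1). In macrophages LXR switches on genes that move cholesterol out of the cell, and inflammatory signals through Toll-like receptors are known to interfere with this programme.

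Promoter sequence helps to show what such elements look like at these genes. RefSeq start sites (GRCm38.p6, the assembly called mm10) were found for 8 of the 9 genes, with 12 start sites in all. Abcg1 had no entry in the table used. The 250 bases before each start were searched on both strands for the closest match to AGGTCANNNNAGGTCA (DR4) and AGGTCANAGGTCA (DR1). The 3 stretches below end at the base before the start site, run 5′ to 3′ on the gene's strand, and are shown because they hold the closest DR4 match of Abca1, the efflux transporter with an entry, and the closest DR1 matches among the 8 genes. Capitals mark the match.
Abca1, chr4:53159896-53160015, minus strand: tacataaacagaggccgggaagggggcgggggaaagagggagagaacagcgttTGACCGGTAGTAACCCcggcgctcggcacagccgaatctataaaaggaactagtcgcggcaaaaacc
Apoc2, chr7:19677942-19678081, minus strand: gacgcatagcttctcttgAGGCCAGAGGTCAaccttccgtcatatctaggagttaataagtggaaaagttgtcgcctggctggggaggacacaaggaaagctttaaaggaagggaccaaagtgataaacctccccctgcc
Rxra, internal start, chr2:27709152-27709291, plus strand: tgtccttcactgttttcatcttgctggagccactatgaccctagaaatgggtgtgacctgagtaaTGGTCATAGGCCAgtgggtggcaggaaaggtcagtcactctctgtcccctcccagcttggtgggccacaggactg
The Abca1 match reads as DR4 on the opposite strand, begins 67 bases before the start and differs from the searched letters at 3 of the fixed positions. Of all 32851 RefSeq promoter windows of the same length, 18.51% held a DR4 match with at most 3 differences. The Rxra stretch also holds a DR4 match with 3 differences, left unmarked, which begins 58 bases before the start. The closest DR4 matches of the remaining genes had 4 to 6 differences, with 5 for Pltp and 6 for Mylip. The Apoc2 match differs from DR1 at 1 position and begins 122 bases before the start, and 0.484% of windows held one as close. At the internal Rxra start, the DR1 match with 2 differences begins 75 bases before the start, and 3.236% of windows held one as close. A match describes letters only. Elements outside these windows were not searched.

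Libraries were deep, with 27.1 to 37.7 M recovered reads each. Replicate 1 of the untreated and replicate 1 of the LPS-treated resident macrophages stand apart, because Y-linked transcripts such as Ddx3y (1856 and 1975 normalized reads) were read in these libraries alone. They therefore held RNA of a male mouse, which replicates 2 and 3 of both resident groups did not. Ddx3y was at the floor of 1 in every BMDM library as well, so sex is not matched in the comparisons between origins. Cd163, the labelled marker, averaged 7503 ± 2867 normalized reads (SD, n = 3) in untreated resident macrophages and 47.9 ± 8.48 (n = 2) in untreated BMDM. The summed level of 12 macrophage markers took 0.894% to 1.17% of untreated resident libraries, 0.704% to 0.837% of LPS-treated resident libraries, 0.716% to 0.786% of untreated BMDM and 0.548% to 0.552% of LPS-treated BMDM. Markers of other marrow cells were present in the resident libraries, where 12 neutrophil markers took 0.695% to 1.45% untreated and 1.03% to 1.23% with LPS, against at most 0.00762% in any BMDM library. The neutrophil marker Ly6g was at the floor in every BMDM library. Erythroid markers took 0.114% to 0.177% of the resident libraries and at most 0.000241% of the BMDM libraries. The part of these other cells in the differences between origins was not tested. In bulk samples, fewer cells of a type and less RNA per cell cannot be told apart.

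Values below are normalized reads, meaning gene reads scaled by the authors with a single factor for each library. Changes are log2 ± SE from a limma model over all 10 libraries, on log2 of the value plus 1, and a gene is called changed when its p, adjusted by Benjamini and Hochberg's method over 13755 tested genes, is under 0.05.

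**Figure D1:**
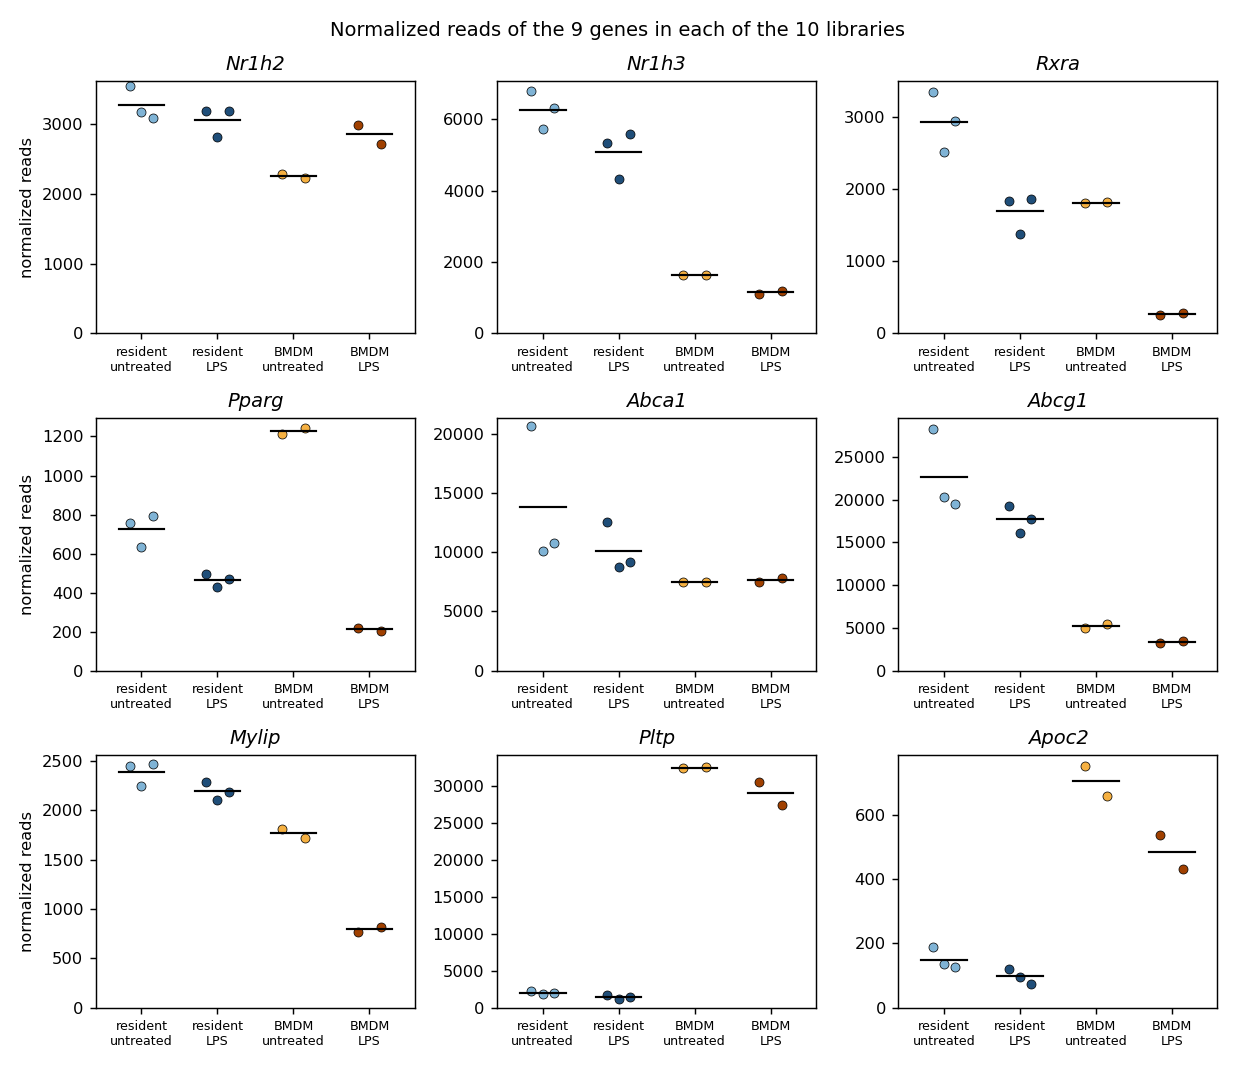
Normalized reads (vertical axes, from 0) of the 9 genes in each of the 10 libraries, grouped by origin and treatment. Points are single libraries and lines are group means. Rxra, Pparg and Mylip are lowest in the LPS-treated BMDM, and Pltp and Apoc2 are high in both BMDM groups.

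The LPS comparison in resident macrophages asks how cholesterol sensing and export genes respond in cells taken directly from the marrow. Rxra and Pparg fell, as did Pltp, and none of the 9 genes rose. Hence 3 of 9 were called lower, where 12.9% of all tested genes were called, 5.57% lower and 7.36% higher. All 9 changes were negative, with a median of -0.39, beside a median of 0.0024 over all tested genes. The transporter genes Abca1 and Abcg1 and both LXR genes were not called. The model was also fitted with a term for the 2 libraries with Y-linked transcripts, 1 in each resident group, an alternative chosen after seeing the data. With this term 7 of 9 were called lower and none higher, where 25.1% of all tested genes were called, 12.3% lower and 12.8% higher. The calls gained were those of Nr1h3, Abca1, Abcg1 and Apoc2, so these 4 resident changes are below the threshold or past it depending on that term.

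In BMDM the same comparison gave larger changes for Rxra, Pparg and Mylip. Changes of Abca1, Pltp and Apoc2 were smaller there (0.03, -0.17 and -0.54) than in resident macrophages (-0.39, -0.48 and -0.62), differences that were not called. Rxra and Pparg fell by more than 5-fold, and Mylip, Abcg1 and Nr1h3 fell too. Nr1h2 was called higher, but this call depends on how libraries are scaled, and Abca1, Pltp and Apoc2 were not called. Of the 9 genes, 6 were called (5 lower, 1 higher), where 57.8% of all tested genes were called, 29.5% lower and 28.3% higher. A share of 6 in 9 is thus near the background. The median change of the 9 genes was -0.54, beside -0.04 over all tested genes.

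**Figure D2:**
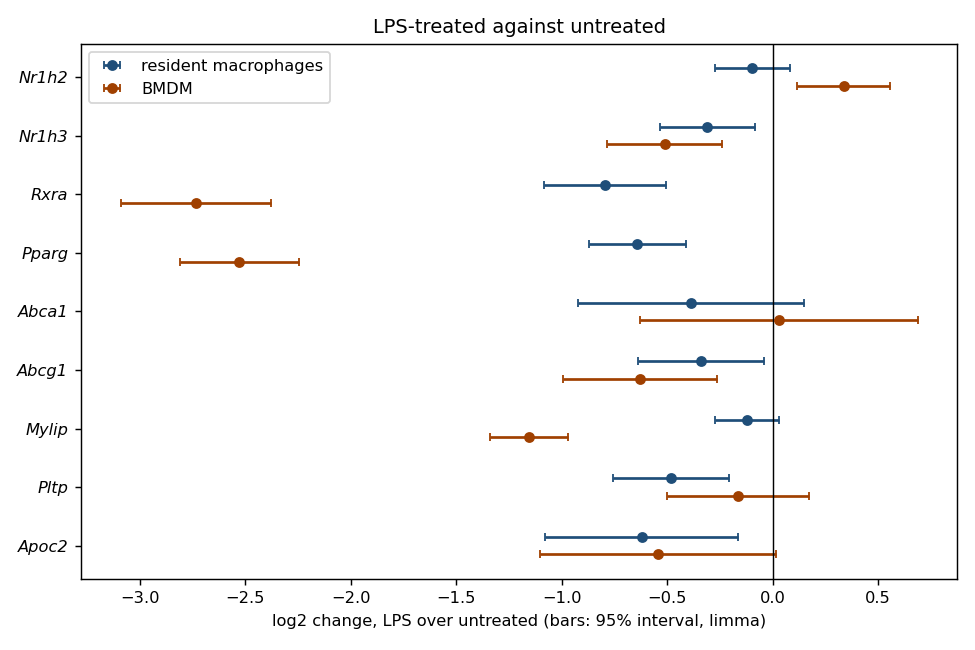
Log2 change with LPS (horizontal axis) of each gene in resident macrophages and in BMDM, with 95% intervals from limma as bars. For Rxra, Pparg and Mylip the intervals of both origins lie far apart, and for Abca1 both intervals include 0.

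Rxra (chr2:27676440-27762957, plus strand, mm10; ENSMUSG00000015846.14) encodes the shared dimer partner of the LXRs and PPARs. Untreated resident libraries held 3349, 2524 and 2948 normalized reads, and LPS-treated resident libraries held 1839, 1384 and 1867. Untreated BMDM held 1805 and 1819.7, and LPS-treated BMDM held 260.1 and 283. Within each origin every LPS-treated library lies below every untreated one, and untreated BMDM lie among the LPS-treated resident libraries. The change was -0.80 ± 0.13 in resident macrophages (limma adjusted p = 0.00428, 1.74-fold lower). In BMDM it was -2.73 ± 0.16 (limma adjusted p = 1.69e-07, 6.66-fold lower). The resident response exceeded the BMDM response by 1.94 ± 0.21 (limma adjusted p = 3.43e-05), which makes the fall in BMDM 3.83-fold deeper. At such a difference Rxra sits among the top of all genes: 95.6% of tested genes had a smaller signed difference of responses.

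Pparg (chr6:115360951-115490399, plus strand; ENSMUSG00000000440.12) encodes PPARγ. Its levels were 759, 632 and 793 in untreated and 494, 430.4 and 468 in LPS-treated resident libraries. BMDM held 1211 and 1242 untreated and 219 and 205 with LPS. The groups do not overlap anywhere, and the order of the origins turns: BMDM are the highest group untreated and the lowest group after LPS. The change was -0.64 ± 0.10 in resident macrophages (limma adjusted p = 0.00397, 1.56-fold lower) and -2.53 ± 0.13 in BMDM (limma adjusted p = 5.12e-08, 5.77-fold lower). The difference of the responses was 1.89 ± 0.16 (limma adjusted p = 7.64e-06). Rxra and Pparg kept their calls in both LPS comparisons and in the difference of responses under every alternative run.

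Beside these falls in the resident libraries, 1 of 12 macrophage markers (Fcgr1) fell with LPS as well. So did 3 of 5 monocyte markers (Ccr2, Cx3cr1 and F13a1). The other 2 monocyte markers were not called, and 1 of the 5 changes was positive. Summed monocyte markers overlapped, at 7862 to 13108 normalized reads untreated and 11081 to 14205 with LPS. As a share of the library, summed macrophage markers were lower in treated (0.704% to 0.837%) than in untreated libraries (0.894% to 1.17%). In normalized reads, the scale of the changes given here, these sums overlap (238282 to 361825 untreated, 210600 to 271280 with LPS). Called or not, 11 of the 12 macrophage marker changes in the resident libraries were negative and 1 was positive. Their median was -0.31, beside 0.0024 over all tested genes. The neutrophil markers split into 6 positive and 6 negative, and all 10 erythroid markers were positive (median 0.19). In BMDM 5 of the 12 macrophage markers rose and 2 (Csf1r and Cd163) fell with LPS. Their sum rose there in normalized reads (185954 to 194107 untreated, 211430 to 214001 with LPS), while its share of the library fell. The part of these markers' cells in the falls of Rxra and Pparg was not tested.

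Nr1h3 (chr2:91184061-91202834, minus strand; ENSMUSG00000002108.10) encodes LXRα, the LXR form found mainly in liver, fat and macrophages. Resident libraries held 6779.7, 5718 and 6298 untreated and 5315, 4324 and 5573 with LPS. BMDM held 1644 and 1631 untreated and 1113 and 1183 with LPS. Treated libraries are below untreated ones in each origin, with a narrow gap in the resident cells. In BMDM Nr1h3 fell by 0.51 ± 0.12 (limma adjusted p = 0.00467). The resident change of -0.31 ± 0.10 missed the threshold (limma adjusted p = 0.0720), and its 95% interval ran from -0.53 to -0.09. It was called with quantile normalization (-0.40, limma adjusted p = 0.0127), with equal totals (-0.43, limma adjusted p = 0.0112) and with the term for Y-linked transcripts (limma adjusted p = 0.0228). The responses were not shown to differ (0.20 ± 0.16, limma adjusted p = 0.343), although equal totals called the difference (0.69, limma adjusted p = 0.00291).

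Nr1h2 (chr7:44549616-44553951, minus strand; ENSMUSG00000060601.13) encodes LXRβ, the form found in most tissues. Its levels were 3555, 3180.3 and 3086 in untreated and 3185, 2812 and 3188 in LPS-treated resident libraries, which overlap. BMDM held 2293 and 2226 untreated, and 2994 and 2715 with LPS, both above. The resident change was -0.10 ± 0.08 (limma adjusted p = 0.506; called at equal totals, -0.22, limma adjusted p = 0.0496) and the BMDM change 0.34 ± 0.10 (limma adjusted p = 0.0139), with a difference of responses of -0.43 ± 0.13 (limma adjusted p = 0.0202). The direction in BMDM turns with scaling. The change was -0.15 with quantile normalization, not called (limma adjusted p = 0.130). With libraries scaled to equal totals it was -0.28 and called lower (limma adjusted p = 0.0120). The median of all genes also moved under these scalings, from -0.04 to -0.21 and -0.64, and relative to it Nr1h2 stood at 0.38 as deposited, 0.055 after quantile normalization and 0.36 at equal totals. Without BMDM LPS replicate 1 the change was 0.27 and no longer called (limma adjusted p = 0.113), and without BMDM untreated replicate 1 or 2 it was not called either (0.0513 and 0.0798).

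The balance of both LXR genes can be read per kilobase of exon. Nr1h3 over Nr1h2 was 1.68 to 1.90 in untreated and 1.44 to 1.63 in LPS-treated resident libraries, so the LXRα transcript was the more abundant. In BMDM the ratio was 0.670 to 0.684 untreated and 0.347 to 0.407 with LPS, so the LXRβ transcript was the more abundant. The 4 groups do not overlap in this ratio, which dividing a library by a single factor cannot change. The ratio itself was not tested.

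Abca1 (chr4:53030787-53159895, minus strand; ENSMUSG00000015243.4) encodes the transporter that loads cholesterol onto lipid-poor apolipoprotein A-I, and is a classical LXR target. Resident libraries held 20687, 10091 and 10792 normalized reads untreated and 12542, 8720.2 and 9176 with LPS. BMDM held 7533 and 7519 untreated and 7533 and 7831 with LPS. In both resident groups replicate 1, the library with Y-linked transcripts, is the highest, and the groups overlap. The BMDM groups meet at 7533. The resident change was -0.39 ± 0.24 (limma adjusted p = 0.344, 95% interval -0.93 to 0.15) and the BMDM change 0.03 ± 0.29 (limma adjusted p = 0.958, 95% interval -0.63 to 0.69). As folds of the untreated level, these intervals run from 0.526 to 1.11 in resident macrophages and from 0.647 to 1.61 in BMDM. Without both libraries with Y-linked transcripts the resident change was -0.22 and was called (limma adjusted p = 0.0341), as it was with a term for them (-0.39, limma adjusted p = 0.0104). In BMDM quantile normalization gave -0.80 and equal totals -0.58, and both were called (limma adjusted p = 0.0135 and 0.0498).

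Abcg1 (chr17:31057675-31117988, plus strand; ENSMUSG00000024030.7) encodes the transporter that passes cholesterol to high-density lipoprotein. Levels were 28273, 20294 and 19521 in untreated and 19286, 16117 and 17751 in LPS-treated resident libraries. BMDM held 5037 and 5398 untreated, and 3275 and 3468 with LPS. Treated libraries are below untreated ones in both origins. Abcg1 fell in BMDM by 0.63 ± 0.16 (limma adjusted p = 0.00754). The resident change was -0.34 ± 0.13 (limma adjusted p = 0.130), and it was called with quantile normalization (-0.56), with equal totals (-0.46), and when the pair of libraries with Y-linked transcripts was left out (-0.23) or given a term (limma adjusted p = 0.00827). The BMDM call was narrowly lost without BMDM untreated replicate 2 or without BMDM LPS replicate 1 (limma adjusted p = 0.0521 and 0.0523). The responses were not shown to differ (0.29 ± 0.21, limma adjusted p = 0.310), but 4 alternatives called the difference. It was 0.74 with quantile normalization, 0.78 with equal totals, 0.46 without resident untreated replicate 1 and 0.39 with both Y-linked libraries left out (limma adjusted p = 0.00159, 0.00139, 0.0157 and 0.00978).

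Mylip (chr13:45389742-45412022, plus strand; ENSMUSG00000038175.10) encodes IDOL, a ubiquitin ligase that LXR induces and that limits lipoprotein uptake. Resident libraries held 2444, 2250.3 and 2471 untreated and 2282, 2107 and 2187 with LPS, which overlap. In BMDM the level went from 1811 and 1724 to 765 and 822, well apart. Mylip fell in BMDM by 1.15 ± 0.08 (limma adjusted p = 8.73e-07, 2.23-fold lower). The resident change was -0.12 ± 0.07 (limma adjusted p = 0.279). The difference of the responses was 1.03 ± 0.11 (limma adjusted p = 2.89e-05), and every alternative run kept both the BMDM call and this difference.

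Pltp (chr2:164839518-164857711, minus strand; ENSMUSG00000017754.13) encodes phospholipid transfer protein, a secreted LXR target that remodels high-density lipoprotein. Untreated resident libraries held 2216, 1829 and 1985 and treated ones 1693, 1188 and 1467, with no overlap. BMDM held 32355 and 32534 untreated, and 30561 and 27389 with LPS. Pltp fell in resident macrophages by 0.48 ± 0.12 (limma adjusted p = 0.0301), a call lost in 10 of 23 alternatives. Of these, 8 leave out 1 library: resident untreated replicate 1 or 3, resident LPS replicate 2 or 3, or any BMDM library, with changes of -0.35 to -0.50. In BMDM the change was -0.17 ± 0.15 (limma adjusted p = 0.380), and it was called lower after quantile normalization (-1.08) and at equal totals (-0.78). Its exons overlap those of Ctsa, on the opposite strand, by 495 of 2354 bases, and the kit does not mark strand, so reads there cannot be assigned.

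Apoc2 (chr7:19671579-19677941, minus strand; ENSMUSG00000002992.17) encodes apolipoprotein C-II, the activator of lipoprotein lipase. It was the scarcest of the 9 genes in reads in every group but LPS-treated BMDM, where Rxra and Pparg were lower. Resident libraries held 188, 136 and 126 untreated and 121, 96.6 and 74.6 with LPS. BMDM held 752 and 659 untreated, and 537 and 433 with LPS. Treated libraries lie below untreated ones in each origin. The changes were of like size, -0.62 ± 0.21 in resident macrophages (limma adjusted p = 0.0774) and -0.54 ± 0.25 in BMDM (limma adjusted p = 0.0890), and neither was called. In resident macrophages the change was called without both libraries with Y-linked transcripts (limma adjusted p = 0.0283), without resident LPS replicate 1 alone (-0.79, limma adjusted p = 0.0359), at equal totals (-0.74, limma adjusted p = 0.0225) and with the term for Y-linked transcripts (limma adjusted p = 0.00638). In BMDM 6 alternatives called the fall. They were equal totals (-1.15, limma adjusted p = 0.00107), only the groups compared (limma adjusted p = 0.0420), the fits without resident untreated replicate 1 (limma adjusted p = 0.0496) or without both libraries with Y-linked transcripts (limma adjusted p = 0.0151), the term for those transcripts (limma adjusted p = 0.0114) and voom (limma adjusted p = 0.0216). An annotated read-through transcript, Gm44805, shares 646 of the 813 exon bases on the same strand, so reads may be split between them.

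Counting groups that do not overlap, 6 of the 9 genes were lower in every LPS-treated than in every untreated resident library, where 13.3% of all tested genes were (13.8% were higher in the same way). The 6 are Nr1h3, Rxra, Pparg, Abcg1, Pltp and Apoc2. In BMDM 7 of 9 were lower without overlap, where 44.7% of all tested genes were, and 1 was higher, where 39.7% were.

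Testing the difference of the LPS responses directly, 4 of 9 genes were called, 3 higher and 1 lower, where 41.8% of all tested genes were called, 19% higher and 22.8% lower. The falls of Rxra, Pparg and Mylip were deeper in BMDM, and Nr1h2 differed in the other direction. Abca1 (-0.42 ± 0.38, 95% interval -1.27 to 0.43), Abcg1, Nr1h3, Pltp and Apoc2 were not shown to differ. Of these, only Apoc2 stayed uncalled in all 22 alternatives run. Besides the calls of Abcg1 and Nr1h3 given above, Abca1 was called without both libraries with Y-linked transcripts (-0.25, limma adjusted p = 0.0393) and with a term for them (limma adjusted p = 0.0300), and Pltp with quantile normalization in the opposite direction (0.57, limma adjusted p = 0.0245). Both LPS comparisons enter this difference, so it adds no samples of its own.

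Resident macrophages and BMDM were also compared without LPS, which asks how the pathway stands in cells of the 2 origins at rest. Resident macrophages had more transcript of both LXR genes, Rxra, Abca1, Abcg1 and Mylip, and less of Pparg, Pltp and Apoc2. All 9 genes were called (6 higher, 3 lower), where 71.9% of all tested genes were called, 39.2% higher and 32.6% lower. The largest differences were in Abcg1 (2.10 ± 0.15, 4.29-fold higher, limma adjusted p = 7.4e-07) and Nr1h3 (1.93 ± 0.11, 3.82-fold higher, limma adjusted p = 1.55e-07) on one side. On the other were Pltp (-4.02 ± 0.14, 16.2-fold lower, limma adjusted p = 3.23e-09) and Apoc2 (-2.25 ± 0.23, 4.74-fold lower, limma adjusted p = 1.04e-05). Of all tested genes, 0.814% had a more negative value than Pltp, while Ctsa, its overlapping neighbour, differed by -0.83 ± 0.17 in the same direction.

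Smaller differences were those of Rxra (0.69 ± 0.15), Nr1h2 (0.53 ± 0.09), Mylip (0.43 ± 0.08) and Pparg (-0.76 ± 0.12), each called under every alternative run. Abca1 was 0.80 ± 0.27 higher in resident macrophages (limma adjusted p = 0.0211). The Abca1 call was lost with quantile normalization (0.40, limma adjusted p = 0.113), with only the untreated groups fitted (limma adjusted p = 0.0610) and without BMDM untreated replicate 1 or 2 (0.0816 and 0.0820). Every untreated resident library lay above every untreated BMDM library in Abca1 all the same.

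**Figure D3:**
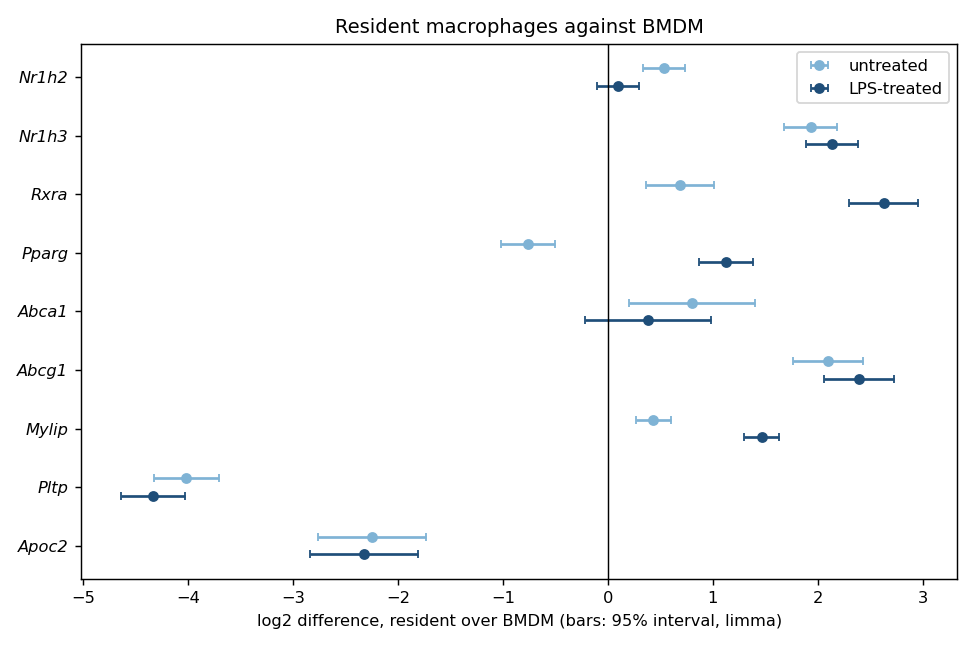
Log2 difference of resident macrophages over BMDM (horizontal axis), untreated and LPS-treated, with 95% intervals from limma as bars. Pltp lies near -4 in both, Rxra moves from 0.69 untreated to 2.63 with LPS, and Pparg crosses 0.

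After LPS, 7 of the 9 genes were called between the origins (5 higher in resident macrophages, 2 lower), where 71.3% of all tested genes were called, 36.7% higher and 34.5% lower. Rxra (2.63 ± 0.15, 6.18-fold), Abcg1 (2.39 ± 0.15), Nr1h3 (2.13 ± 0.11), Mylip (1.46 ± 0.08) and Pparg (1.13 ± 0.12) were higher in resident macrophages. Pltp (-4.33 ± 0.14, 20.2-fold) and Apoc2 (-2.32 ± 0.23) were lower. Abca1 (0.38 ± 0.27, limma adjusted p = 0.224) and Nr1h2 (0.10 ± 0.09, limma adjusted p = 0.335) were not called, but both were called under quantile normalization (0.66 and 0.24) and after scaling to equal totals (0.71 and 0.43). The Abca1 difference was called as well without resident untreated replicate 1 (limma adjusted p = 0.0265) and when the pair with Y-linked transcripts was left out (0.22, limma adjusted p = 0.0095).

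Levels of different genes were compared per kilobase of exon, in normalized reads. In untreated resident macrophages the order ran from Abcg1 (3323 ± 709, SD, n = 3) and Nr1h3 (2916 ± 247), whose libraries overlap, through Nr1h2 (1632 ± 124) and Abca1 (1350.3 ± 577), which overlap too. Pltp (854 ± 82.8), Mylip (739 ± 37.2), Rxra (576 ± 80.8), Pparg (306 ± 35.8) and Apoc2 (184 ± 41.2) followed, with no overlap between neighbours. LPS-treated resident macrophages kept Abcg1 (2594 ± 232) and Nr1h3 (2359.6 ± 307) on top and Apoc2 (119.8 ± 28.6) at the bottom.

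Pltp led by far in BMDM, at 13783 ± 53.8 per kilobase untreated and 12309 ± 953 with LPS (n = 2 each). Nr1h2 came next (1126 ± 23.6 and 1423 ± 98.6). Untreated, Abcg1 (764 ± 37.3) and Nr1h3 (762 ± 4.6) overlapped, and Rxra (355 ± 2.05) was last. With LPS, Pparg (89.1 ± 4.31) and Rxra (53.2 ± 3.18) were at the bottom. Abcg1 over Abca1 was 2.05 to 3.02 in untreated and 2.31 to 2.91 in treated resident libraries, against 1.00 to 1.08 in untreated and 0.653 to 0.665 in treated BMDM.

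**Figure D4:**
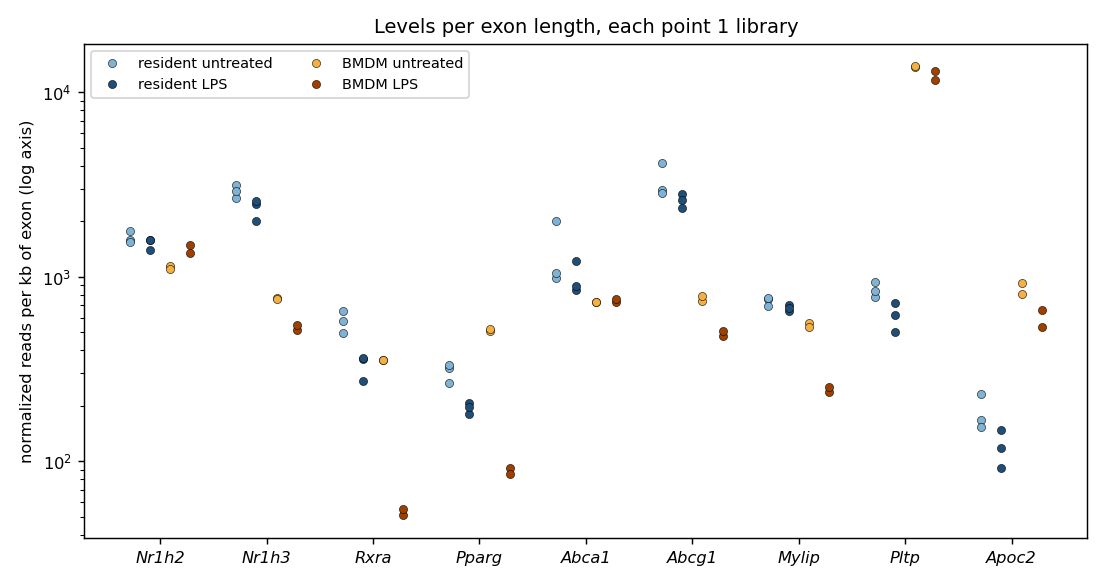
Normalized reads per kilobase of exon (log axis) of the 9 genes, with 1 point per library and colours for the 4 groups. Abcg1 and Nr1h3 lead in the resident libraries, and Pltp leads in BMDM.

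The 9 genes did not move as a block. Each gene's profile, as log2 values centred on its mean over the 10 libraries, was compared with every other gene by the root mean square difference. Nr1h3 and Abcg1 were the closest pair among the 9 (0.16), close to the best outside match of each, Mgat4b, at 0.12 and 0.13. Pltp and Apoc2 were each other's closest member, but at 0.95. The outside gene most like Rxra was Lfng (0.15), and Agfg2 was most like Pparg (0.10). Snrpd3 was most like Nr1h2 (0.05), Slc29a1 most like Abca1 (0.14), Cebpz most like Mylip (0.11), C3ar1 most like Pltp (0.23) and Fuca1 most like Apoc2 (0.13).

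Among 11 tested partner genes of these receptors (the other RXR and PPAR genes, corepressors and coactivators), 1 fell and none rose with LPS in resident macrophages, with a median of -0.01, where 12.9% of all tested genes were called. The count was 3 without resident untreated replicate 1, 2 without resident LPS replicate 3, 4 without both libraries with Y-linked transcripts and 3 with a term for them. In the same order, calls over all tested genes were 2290 of 13731, 1278 of 13728, 2893 of 13696 and 3449 of 13755 (25.1%). The 1 called in the main fit was Rxrb, encoding RXRβ, which fell from 1753 ± 93.3 to 1327 ± 55.2 normalized reads (-0.40 ± 0.07, limma adjusted p = 0.0046). In BMDM 5 rose and 4 fell, with a median of 0.14, where 28.3% of all tested genes were called higher and 29.5% lower. Rxrb fell there by 0.86 ± 0.08. Ppargc1b (1.59 ± 0.27) and Med1 (0.99 ± 0.09), coactivator genes, rose in BMDM. Between untreated origins, Ppard, which encodes PPARδ, was 1.94 ± 0.15 higher in resident macrophages, opposite to Pparg.

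Among 15 tested LXR targets outside the 9 genes, 1 rose and 2 fell with LPS in resident macrophages (median -0.20), and 3 rose and 4 fell in BMDM (median -0.02). The share called over all tested genes was 12.9% and 57.8%, so the BMDM count is below it. In resident macrophages 7 of the 15 were called without both libraries with Y-linked transcripts or without resident untreated replicate 1 alone, 8 with a term for those transcripts, 5 with quantile normalization or equal totals, and 1 with only the groups compared. Calls over all tested genes moved as well. They were 2893 of 13696 without both libraries, 2290 of 13731 without that replicate and 3449 of 13755 (25.1%) with the term. With quantile normalization they were 2014 of 13755, with equal totals 2386 of 13750 and with only the groups compared 529 of 13755. Cd5l, encoding a secreted macrophage protein, fell in resident macrophages from 24302 ± 4510.1 to 15120.4 ± 1644 (-0.67 ± 0.13, a call lost with only the groups compared), and Ccr7, encoding a chemokine receptor, rose there by 0.85 ± 0.16. Abca8b was called lower there as well, but at 5.29 ± 0.721 and 1.97 ± 0.898 normalized reads, near the floor of 1, and 12 alternatives ended the call. The deepest BMDM falls were those of Scd2, a fatty acid desaturase gene (4591 ± 30.2 to 325 ± 9.99, -3.82 ± 0.23, limma adjusted p = 2.04e-07), and Arl4c (6461 ± 11.9 to 1219 ± 41.9, -2.41 ± 0.24). Mertk, the gene of a receptor for apoptotic cells, rose in BMDM by 1.78 ± 0.20.

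Apoe, the gene of apolipoprotein E and a strong LXR target, is far more abundant than Apoc2, which lies in the same gene cluster. Resident libraries held 210496, 133718 and 112679 normalized reads untreated and 146093, 92563 and 78394 with LPS. BMDM held 148315 and 167022 untreated and 143520.0 and 166279 with LPS. Treated and untreated libraries overlap in each origin, and Apoe was not called in either LPS comparison (-0.53 ± 0.29 and -0.03 ± 0.35, limma adjusted p = 0.277 and 0.973). In resident macrophages it was called without both libraries with Y-linked transcripts (-0.53, limma adjusted p = 0.0393), with a term for them (limma adjusted p = 0.0104) and with quantile normalization (-0.82).

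Srebf1, the gene of a lipogenic transcription factor that LXR induces, held 5119, 3889 and 3821 in untreated and 3686, 3051 and 3776 in treated resident libraries. In BMDM it went from 2553 and 2407 to 1936 and 1762 and was called lower (-0.42 ± 0.15, limma adjusted p = 0.0322). That call was lost without any 1 of the 4 BMDM libraries and with no variance trend (limma adjusted p = 0.0625). The resident change of -0.28 ± 0.12 was not called (limma adjusted p = 0.167), but quantile normalization (-0.34), equal totals (-0.40) and the term for Y-linked transcripts (limma adjusted p = 0.0396) each gave a call.

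Among 17 tested PPAR targets, 1 rose and 3 fell in resident macrophages (median -0.03), and 4 rose and 6 fell in BMDM (median 0). The BMDM count, 10 of 17, is near the 57.8% of all tested genes called there, and 12.9% were called in resident macrophages. With the term for Y-linked transcripts 7 of 17 were called in resident macrophages, where 25.1% of all tested genes were. With only the groups compared 2 were, where 529 of all 13755 tested genes were. Acsl1, which encodes an enzyme that activates fatty acids, rose in both: from 5644 ± 144 to 11448 ± 1824 in resident macrophages (1.01 ± 0.10, limma adjusted p = 0.00036) and from 1132 ± 18.9 to 18937 ± 133 in BMDM (4.06 ± 0.12, limma adjusted p = 1.55e-09). Acadl, a fatty acid oxidation gene, rose in BMDM by 1.09 ± 0.08. Ucp2, a mitochondrial carrier gene, fell by 0.37 ± 0.09 in resident macrophages and by 1.16 ± 0.11 in BMDM. The resident Ucp2 call was lost without resident untreated replicate 3, resident LPS replicate 1 or resident LPS replicate 2 and with only the groups compared (limma adjusted p = 0.0568, 0.0529, 0.0759 and 0.0897). Angptl4, which encodes an inhibitor of lipoprotein lipase, fell in BMDM from 308 ± 5.09 to 25.0 ± 10.6 (-3.63 ± 0.39, limma adjusted p = 1.89e-05), while it stood at 1313 ± 672 and 1215 ± 78.5 in resident macrophages.

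Cd36, the gene of a scavenger receptor and fatty acid transporter often used as a readout of PPARγ, followed origin. Resident libraries held 10505, 5460.1 and 5089 untreated and 9087, 5479 and 5187 with LPS. BMDM held 51319 and 51809 untreated and 54814 and 56022 with LPS. It was lower in resident macrophages by 2.96 ± 0.31 on the log2 scale without LPS (limma adjusted p = 1.15e-05), and was not called with LPS in either origin (limma adjusted p = 0.928 and 0.826). The BMDM direction turned under other scalings. It was -0.87 after quantile normalization, which was called lower (limma adjusted p = 0.0249), and -0.51 at equal totals, not called (limma adjusted p = 0.126). Fabp4, a fatty acid binding protein gene also assigned to PPARγ, went the other way between untreated origins, 3.47 ± 0.25 higher in resident macrophages. Adipocyte markers (Adipoq and Car3) summed to 114 to 210 normalized reads in untreated resident libraries and were at the floor in untreated BMDM. Markers of stroma and endothelium summed to 2094 to 3926 and to 504 to 527. The part of such cells in the Fabp4 difference was not tested.

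Among 28 tested genes of cholesterol uptake, storage and transport, 4 rose and 4 fell with LPS in resident macrophages (median -0.10), and 10 rose and 9 fell in BMDM (median -0.10). Of all tested genes 12.9% and 57.8% were called. The resident count of 8 ran from 3 to 12 over alternatives. It was 12 with equal totals or the term for Y-linked transcripts, 3 with only the groups compared or without resident LPS replicate 2, and 5 without resident untreated replicate 3. Over all tested genes, calls were 2386 of 13750 with equal totals, 3449 of 13755 (25.1%) with the term and 529 of 13755 with only the groups compared. Without resident LPS replicate 2 they were 970 of 13723, and without resident untreated replicate 3 they were 1185 of 13724. Ch25h, whose product makes 25-hydroxycholesterol, an oxysterol, stood at 30.1 and 34.7 in untreated BMDM and at 15133 and 14345 with LPS, a change of 8.79 ± 0.39 (limma adjusted p = 2.03e-08). In resident macrophages it was 221, 296 and 139 untreated and 507, 409 and 217 with LPS, with overlap and no call (0.76 ± 0.32, limma adjusted p = 0.15), unless resident LPS replicate 3 was left out (1.12, limma adjusted p = 0.0366). The responses differed by -8.02 ± 0.50 (limma adjusted p = 6.92e-07). Cav1, the caveolin gene, rose in BMDM from 1011 ± 48.3 to 19602 ± 1739 (4.27 ± 0.30) and in resident macrophages from 64.4 ± 14.2 to 139 ± 44.8 (1.06 ± 0.24), the latter call lost with only the groups compared and without resident untreated replicate 3, resident LPS replicate 1 or resident LPS replicate 2.

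Falls in this list included genes of cholesterol ester handling and of uptake. In resident macrophages Lipa, the lysosomal lipase gene, fell by 0.68 ± 0.15 and Soat1, which encodes the enzyme that esterifies cholesterol, by 0.63 ± 0.11. The Lipa call was lost without resident LPS replicate 2 (limma adjusted p = 0.0623) and with only the groups compared. In BMDM Nceh1, a cholesterol ester hydrolase gene, fell by 1.86 ± 0.17, and Lrp1, a lipoprotein receptor gene, by 1.72 ± 0.18. Scarb1, encoding the scavenger receptor for high-density lipoprotein, went from 3046, 2270.3 and 2244 to 1949, 1761 and 1718 in resident macrophages and from 2519.6 and 2418 to 1642 and 1528 in BMDM. It fell in both, by 0.47 ± 0.11 (limma adjusted p = 0.0247) and by 0.64 ± 0.14 (limma adjusted p = 0.0026). The resident call of Scarb1 was lost without resident LPS replicate 2 or 3 (limma adjusted p = 0.0813 and 0.0781), with only the groups compared and with no variance trend.

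**Figure D5:**
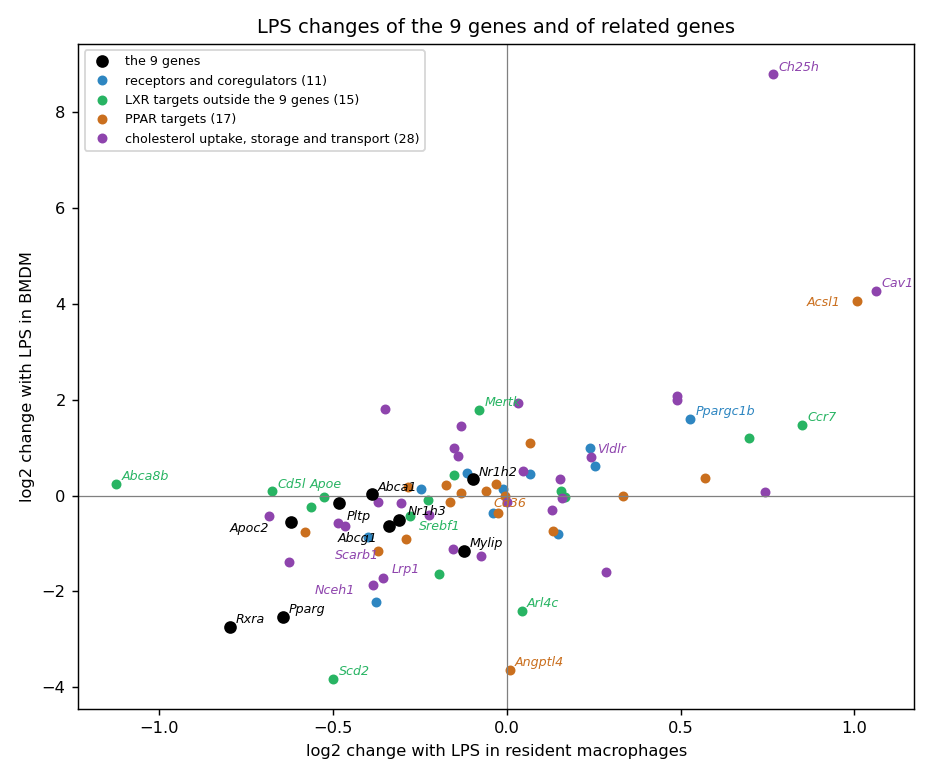
Log2 change with LPS in BMDM (vertical axis) against that in resident macrophages (horizontal axis, a narrower scale) for the 9 genes and the 4 lists of related genes, 1 point per gene. Rxra and Pparg lie at the lower left, and Ch25h lies at 8.79 in BMDM and 0.76 in resident macrophages.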

How the data were processed

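RNA was isolated with the NucleoSpin RNA II kit and libraries are named NEBNext Ultra RNA, per the labels' protocols. HISAT 0.1.7 and mm10 are named in the submitters' processing notes. Annotation, counting program and strand setting: not given in the sources used here. The deposited signal values are gene reads, scaled by the authors with a single factor for each library. Below 1000 reads and above the floor of 1, 100% of values were whole multiples of 1 step per library (0.892 to 1.35, tolerance 0.02), and dividing by it gave 27.1 to 37.7 M reads per library.

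Values were analysed as log2(value + 1) with limma 3.58.1 (R 4.3.3): 4 group means, all 10 libraries, a variance trend, and 5 contrasts. Genes at 10 or more in 2 libraries were tested, 13755 of 13809. Limma's 2-sided p-values were adjusted per contrast (Benjamini and Hochberg). The code was tested on simulated data. Figures used Python 3.11.15 and matplotlib 3.10.9.

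Exon lengths and positions come from GENCODE M21, and promoters from RefSeq. The genes and lists were chosen with earlier results of these data known. Named from the lists are up to 2 called rises and 2 called falls per list and contrast, with Apoe, Srebf1, Scarb1, Cd36 and Ch25h always, and, per gene of the 9, the 3 most similar genes, of which the first is given. Ctsa, Gm44805 and cell type markers are named beside the results they touch. Some genes that this rule would name are not reported here. Alternatives were pseudocounts of 0.1 and 10, no filter, a filter at 100, quantile normalization, equal library totals, recomputed median-ratio factors, no variance trend, robust moderation, only the groups compared, each library left out, both libraries with Y-linked transcripts left out, and, chosen after seeing the data, voom on recovered reads and a model term for those 2 libraries.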

Additional observations from a re-analysis of the deposited data

Results flagged for a closer look

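For 4 of the 9 genes the LPS response of resident macrophages differed from that of BMDM, by limma's test of the difference between both responses. Of all tested genes 41.8% were called in this test, so a share of 4 in 9 is near the background. The resident minus BMDM difference on the log2 scale was 1.94 for Rxra, 1.89 for Pparg, 1.03 for Mylip and -0.43 for Nr1h2. Rxra, Pparg and Mylip kept this call in all 22 alternatives, over ranges of 1.83 to 2.43, 1.79 to 2.37 and 0.98 to 1.52. The Nr1h2 call did not hold under quantile normalization (-0.0062) or equal totals (0.056), nor without BMDM untreated replicate 1, BMDM untreated replicate 2 or BMDM LPS replicate 1 (-0.36 to -0.45). Neutrophil and erythroid markers were present in the resident libraries and nearly absent in BMDM, and their part in these differences was not tested.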

How the results depend on the processing

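Counting each change of the 9 genes under each alternative, 954 values kept direction and call. With direction kept, 35 gained a call and 23 lost one. The other 14 turned direction, and some of these gained or lost a call too. The count of the 9 genes called with LPS in resident macrophages was 3, and it was 5 with quantile normalization, 7 with equal totals, 6 when both libraries with Y-linked transcripts were left out and 7 with a term for them. The count of all genes called there was 1779 of 13755 tested (1013 higher, 766 lower). With quantile normalization it was 2014 of 13755 (963 higher, 1051 lower), and with equal totals 2386 of 13750 (646 higher, 1740 lower). It was 529 with only the groups compared and 2893 when the libraries with Y-linked transcripts were left out, 3449 with a term for them, and ran from 970 to 2290 without single libraries, the low end without resident LPS replicate 2, with 1185 without resident untreated replicate 3.

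Equal totals moved the median of all genes to -0.12 in resident and -0.64 in BMDM LPS comparisons, 0.35 between LPS-treated origins and 0.48 in the difference of responses, and quantile normalization to -0.21 with LPS in BMDM, -0.18 between untreated origins and 0.14 in the difference. Equal totals moved the share of calls that were higher from 56.9% to 27.1% and from 49.0% to 21.6%. Quantile normalization gave 47.8% and 40.0%. Between origins the share went from 54.6% to 41.5% (quantile) untreated and from 51.5% to 68.3% (equal totals) with LPS, and in the difference of responses from 45.5% to 56.9% and 75.4%.

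Direction turned for Nr1h2 (-0.15, quantile; -0.28, equal totals), Abca1 (-0.80; -0.58) and Cd36 (-0.87; -0.51) with LPS in BMDM. In the difference of responses it turned for Nr1h2 (0.056, equal totals), Abca1 (0.26; 0.070), Pltp (0.57; 0.17) and Apoc2 (0.41, equal totals). Leaving out 1 library turned Apoc2 there (range -0.25 to 0.10), Apoe in BMDM (-0.13 to 0.079) and Cd36 in resident macrophages (-0.32 to 0.27), which stood at 0.016 without both libraries with Y-linked transcripts. Med1 between LPS-treated origins was -0.32 and 0.0059 with equal totals. The cause of these changes was not tested.

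No paired analysis was possible because the labels number the libraries 1 to 10 in series, so no number joins libraries across groups. The term for Y-linked transcripts links 1 untreated and 1 treated resident library by what was read in them. Count tests with other tools were not run on the recovered reads. With 2 BMDM libraries per group, leaving out 1 assumes that the other varies as the rest do.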
